A study of Mus musculus with 6 samples.

Results

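Megakaryocytes of the mouse fetal liver were selected on their transcript counts, as the segmented cells that held at least 5 counts summed over Pf4, Ppbp and Mmrn1 in a liver section of embryonic day 14.5 (E14.5), or at least 3 such counts in a section of E13.5. This gate held 4049 of 117329 cells at E14.5, a share of 3.45% with an exact binomial interval of 3.35% to 3.56%. At E13.5 it held 99 of 5285 cells, or 1.87% (1.53% to 2.28%). Together these were 4148 of 122614 liver cells, out of 521938 cells in the 6 sections of the series. Both livers came from wild-type C57BL/6 embryos that had received no treatment, and each stage was sampled by 1 section of 5 µm. Bone marrow sections of wild-type mice, 1 from postnatal day 8 and 1 from mice 89 weeks old, are set beside them. The study mapped the niches in which red cells mature, with C1q+ macrophages among the cells it followed in mice. The E14.5 section holds 4 large pieces of tissue, and the sources used here do not say whether these are lobes or separate embryos. With 1 section per stage there was no test, cells were not treated as replicates, and every interval below is a 95% interval for counting error alone.

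The E14.5 section was read with probes for 477 genes and held 20952143 counts, a median of 167 per cell, and the most frequent negative control probe reached 105 counts. The E13.5 section was read with probes for 5050 genes in a later run and held 1384795 counts, a median of 190 per cell, with a negative control maximum of 1. Cell outlines were grown from the nucleus at E14.5 and drawn with the help of further stains at E13.5. Stage, probe set, run and outline therefore cannot be told apart, and the 2 sections are described side by side. No cell identifier occurred in both sections. Gene levels below are CPM, that is, summed counts scaled to a common total of all genes without Pf4, Ppbp and Mmrn1. That total was 839963 counts in gated and 20010492 in other cells at E14.5, and 36520 and 1347016 at E13.5.

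Megakaryocytes are large blood-forming cells that copy their genome repeatedly without dividing and then shed platelets into the blood. In the embryo they arise in the yolk sac and the fetal liver, beside the red cell lineage with which they share progenitors and the transcription factor GATA1. They store chemokines, growth factors and adhesion proteins in granules, and carry the integrin αIIbβ3, with which platelets bind fibrinogen.

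The 3 genes of the gate all encode granule proteins. Pf4 and Ppbp are platelet chemokines whose genes lie near each other on chromosome 5, and Mmrn1 encodes multimerin, which carries coagulation factor V in platelets. The promoters of Pf4 and Ppbp are shown because their transcripts carry most of the counts of the gate, and those of Slamf1 and Itga2b because these genes stood out in gated cells at E14.5 and at E13.5. Each sequence is the 250 bases before the gene's start in RefSeq (GRCm38.p6), 5′ to 3′ on the gene's strand. Capitals mark AGGAAG or its reverse complement CTTCCT, a form of the site that ETS factors such as FLI1 bind.
Pf4, chr5:90772185-90772434, plus strand: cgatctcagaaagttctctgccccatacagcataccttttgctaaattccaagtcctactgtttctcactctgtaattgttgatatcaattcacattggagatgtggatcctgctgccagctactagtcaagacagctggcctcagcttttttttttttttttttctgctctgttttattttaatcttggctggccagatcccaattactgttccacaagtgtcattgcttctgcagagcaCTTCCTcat
Ppbp, chr5:90768268-90768517, plus strand: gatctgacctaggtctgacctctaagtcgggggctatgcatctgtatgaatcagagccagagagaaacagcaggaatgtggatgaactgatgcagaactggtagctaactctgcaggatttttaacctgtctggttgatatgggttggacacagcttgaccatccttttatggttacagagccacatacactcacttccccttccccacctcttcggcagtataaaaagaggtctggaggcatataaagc
Slamf1, chr1:171766882-171767131, plus strand: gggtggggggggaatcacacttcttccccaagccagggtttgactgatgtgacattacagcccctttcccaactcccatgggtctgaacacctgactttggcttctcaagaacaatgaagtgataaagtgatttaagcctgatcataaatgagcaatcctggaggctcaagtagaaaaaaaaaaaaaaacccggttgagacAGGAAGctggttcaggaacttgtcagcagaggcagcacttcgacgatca
Itga2b, chr11:102469884-102470133, minus strand: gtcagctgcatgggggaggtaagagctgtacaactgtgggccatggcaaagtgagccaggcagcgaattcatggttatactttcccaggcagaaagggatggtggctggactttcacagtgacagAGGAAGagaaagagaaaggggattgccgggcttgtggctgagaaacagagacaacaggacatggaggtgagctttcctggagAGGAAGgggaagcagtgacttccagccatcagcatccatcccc
The windows of Pf4 and Slamf1 hold 1 such motif each, that of Itga2b holds 2 and that of Ppbp none. Of 32851 windows of this length, 29.5% hold the motif on either strand. AGATAA, a form of the GATA motif, is with its reverse complement TTATCT in none of these 4 windows and in 9.99% of all windows. Variant forms of both motifs, such as TGATAA in the Slamf1 window, were not searched for. The letters AG end the first motif and begin the other, so that they could overlap, and a match describes only the letters of the window.

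The values that chose the cells are given as a description. At E14.5 a gated cell held a median of 10 counts of the 3 genes (quartiles 6 and 20, highest 160), and at E13.5 a median of 6 (4 and 10, highest 70). The mean gated cell held 6.88 counts of Pf4, 6.39 of Ppbp and 4.18 of Mmrn1 at E14.5, and 2.27, 8.17 and 0.293 at E13.5. Gated cells carried 58.9% of all Pf4 counts in cells of the E14.5 section, 81.2% of Ppbp and 75.05% of Mmrn1, with 4.35% of the counts of all genes. At E13.5 they carried 78.1%, 89.5% and 43.3%, with 2.71% of all counts. Pf4 was thus the gene with the largest remainder outside the gate at E14.5, and Mmrn1 the one at E13.5. Just outside the E14.5 threshold lay 1571 cells with 3 counts and 968 with 4, and just inside it 596 with 5 and 448 with 6, with median nucleus areas of 29.0, 29.3, 28.6 and 29.4 µm². At E13.5, 120 cells had 1 count, 38 had 2, 22 had 3 and 16 had 4. Neither distribution showed a gap at the threshold.

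**Figure D1:**
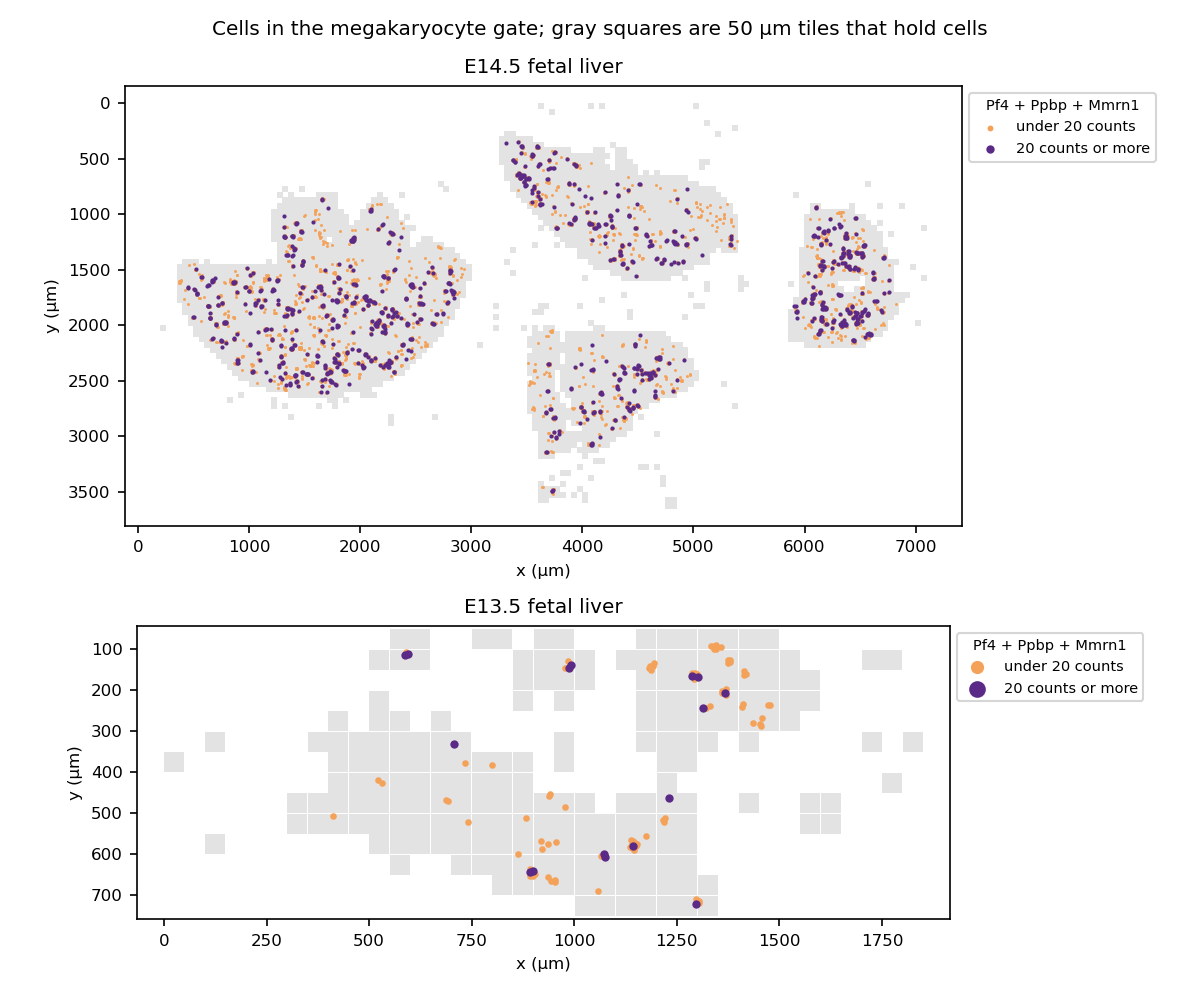
Gated cells in the E14.5 section (top) and the E13.5 section (bottom), by their position in µm, in orange for cells under 20 counts of Pf4, Ppbp and Mmrn1 and in purple for cells with 20 or more, over gray squares of 50 µm that hold any cell. The 4049 and 99 gated cells lie scattered over all pieces of tissue in small clumps, many of which have a purple cell.

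Most gated cells showed more than 1 of the 3 genes. At E14.5 all 3 were seen in 2656 gated cells (65.6%), Pf4 with Ppbp in 736, Pf4 with Mmrn1 in 397 and Ppbp with Mmrn1 in 47. Another 156 cells held Pf4 alone, 54 Mmrn1 alone and 3 Ppbp alone. The cells with Pf4 alone carried 28149 CPM of C1qb and 15239 CPM of Mrc1, genes of tissue macrophages, against 3696 and 2205 CPM in all cells outside the gate. Their Slamf1 level was 403 CPM and their Vwf level 2847 CPM, against 12356 and 32250.1 CPM in cells with all 3 genes. The data go against the megakaryocyte label for these 156 cells, which by their leading genes held macrophage transcripts. The cells with Mmrn1 alone carried 23283 CPM of Tie1, 19392 of Cd93 and 10553 of Plvap, genes of vessel endothelium, against 1370.2, 1085 and 588 CPM outside the gate. Their median cell area was 126 µm² and their median nucleus area 44.0 µm², above the 61.2 and 31.0 µm² of cells with all 3 genes, and the label does not hold for them either. Requiring 2 or more of the genes kept 3836 cells, with a nucleus area ratio of 1.16 and a cell area ratio of 1.25 to the cells outside. At E13.5, 52 gated cells held Pf4 with Ppbp, 24 Ppbp alone, 17 all 3, 3 Pf4 with Mmrn1, 2 Pf4 alone and 1 Mmrn1 alone. The 72 cells with 2 or more genes had a nucleus area ratio of 1.23 and a cell area ratio of 1.40.

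Genes outside the rule are given per cell as a description, since Slamf1, Vwf, Pdgfb, Itga2b, Itgb3 and Thbs1 were chosen as high in gated cells. At E14.5 at least 1 count of Slamf1, Vwf or Pdgfb was seen in 85.6% of gated and 16.2% of other cells, and in 72.2% and 9.96% once every cell was thinned to 100 counts. At E13.5 at least 1 count of Itga2b, Itgb3 or Thbs1 was seen in 80.8% of gated and 4.97% of other cells, and after thinning in 56.5% and 2.38%. Thinning left out shallower cells, so that 3819 gated and 95273 other cells remained at E14.5, and 92 and 3914 at E13.5. Slc4a1, the anion exchanger of the red cell membrane, was seen in 95.9% of gated and 97.1% of other cells at E14.5, and after thinning in 89.0% and 95.1%. C1qb was seen in 30.6% and 25.3% at E14.5, and after thinning in 20.5% and 18.6%. At E13.5 it was seen in 18.2% of gated and 8.47% of other cells, and after thinning in 8.70% and 5.70%.

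Of 245 genes with at least 100 counts in gated cells, or 100 expected there at the level of other cells, at E14.5, 30 (12.2%) were at least 2-fold higher in gated cells, and 1 (0.408%) was at least 2-fold lower. The lower genes numbered 12 with at least 10 marker counts per cell, 25 with the marker genes at 5% or more of a cell's counts and 12 with the highest cell of each linked group alone. With that highest cell alone, 46 of 197 genes were at least 2-fold higher, 25 of them among the 30. Of the 30, 9 had enough counts only through the gated cells, where they are high. The median ratio over all 245 genes was 0.986. With a minimum of 20 in place of 100 counts, 32 of 370 genes (8.65%) were at least 2-fold higher. The 15 highest genes were Slamf1, Pdgfb, Timp3, Ctla2a, Vwf, Arpp21, Hpgd, Cavin2, Gng11, Mylk, Il1b, F13a1, Slc14a2, Laptm5 and Myl9, in that order. Among them Slamf1, Pdgfb, Arpp21, Il1b and Slc14a2 had enough counts only through the gated cells. At E13.5 the section was small, and only 42 genes had enough counts, of which 7 (16.7%) were at least 2-fold higher and 0 (0%) at least 2-fold lower. All 7 had enough counts only through the gated cells, so that their number has no weight of its own. With a minimum of 20 counts, 75 of 492 genes (15.2%) were at least 2-fold higher, 67 of them through gated cells only, and the E13.5 genes below are described by their values.

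**Figure D2:**
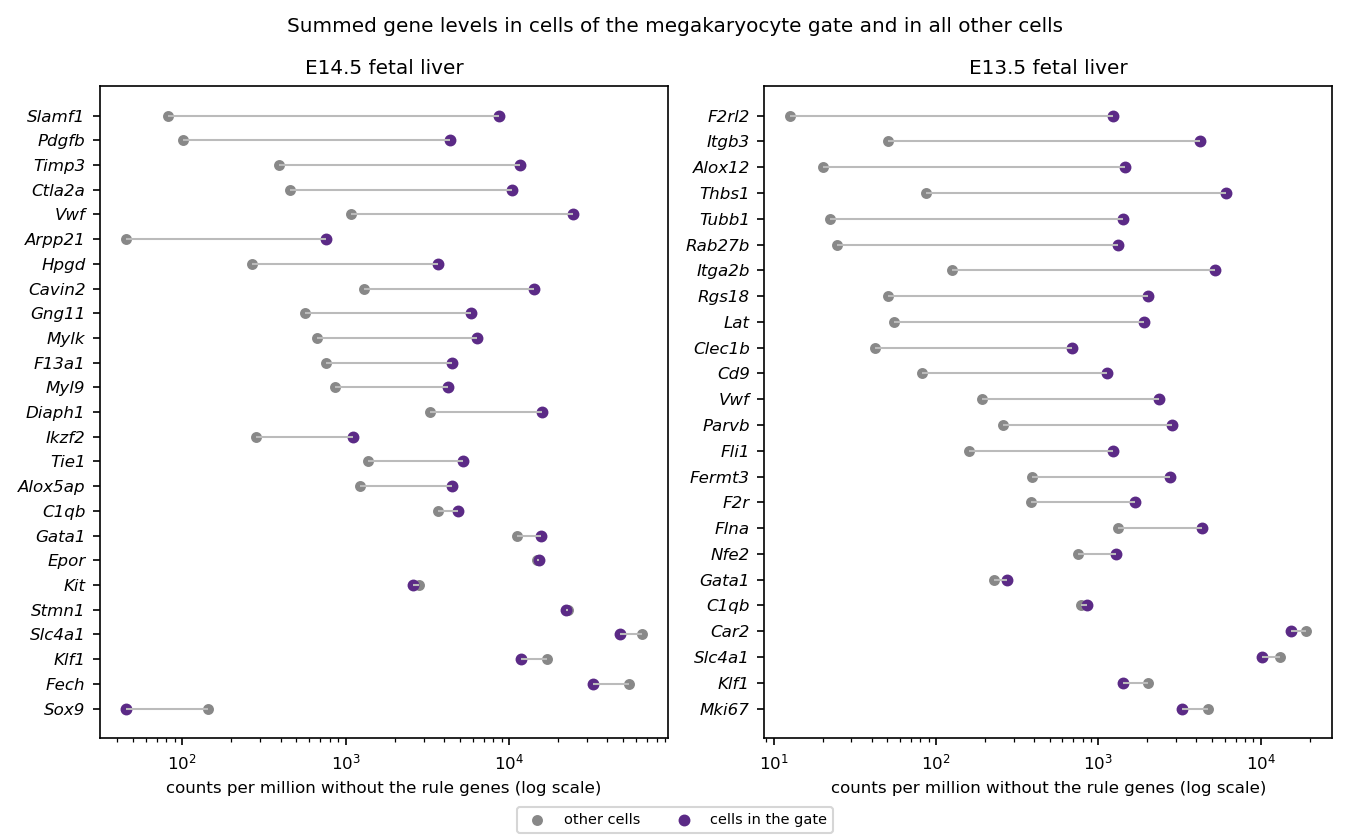
Summed levels of named genes in gated cells (purple) and in all other cells (gray) of the E14.5 section (left) and the E13.5 section (right), in CPM on a log axis. The longest lines belong to Slamf1 (8749 against 82.3 CPM) at E14.5 and to F2rl2 (1232 against 12.6 CPM) at E13.5, while erythroid genes such as Slc4a1 lie slightly lower in gated cells.

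Of the surface receptors, Slamf1 and Cd36 were on the smaller probe set. Slamf1, one of the 9 genes that had enough counts only through the gated cells, encodes CD150, a self-binding receptor that also marks blood stem cells and early megakaryocyte progenitors. It reached 8749 CPM in gated cells and 82.3 CPM in the others, a ratio of 106 (101 to 112). It was seen in 48.2% of gated cells and 1.26% of the others, and in each of the 4 pieces of tissue the ratio lay between 80.5 and 118. Cd36, a scavenger receptor of platelets and of many other cells, had a ratio of 0.793 (0.753 to 0.834). The 13 receptors reported here from the larger probe set had at E13.5 a summed ratio of 15.3 (13.8 to 16.8). Itgb3 and Itga2b, the chains of the fibrinogen receptor, reached 4244 and 5257 CPM in gated cells against 50.5 and 125 CPM. Their ratios were 84.1 (62.8 to 114) and 42.2 (34.1 to 52.2), from 155 and 192 counts in gated cells. Neither chain was on the smaller probe set.

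Other receptors rested on few counts at E13.5. The thrombin receptor gene F2rl2 (PAR3) gave 45 counts in gated cells with a ratio of 97.6 (54.8 to 182), and F2r (PAR1) gave 61 with 4.32 (3.26 to 5.64). Clec1b, which encodes the podoplanin receptor CLEC-2, gave 25 counts with 16.2 (9.68 to 26.3), and the tetraspanin Cd9 gave 41 with 13.6 (9.28 to 19.7). All 4 lay above 1 together with their intervals, and with every cell thinned to 100 counts they were at 95.6, 3.22, 18.2 and 7.12. Selp, which encodes P-selectin of the granule membrane, gave 2 counts, and Cd36 gave 4 counts with a ratio of 0.595 (0.161 to 1.54). The integrin chain gene Itga6 gave 2 counts with 2.63 (0.304 to 10.4) and the adhesion gene Jam3 gave 3 with 1.24 (0.252 to 3.75), and these 3 intervals span 1. The adhesion receptor Cd226 gave 7 counts with a ratio of 86.1 (19.6 to 516), the thrombin receptor F2rl3 (PAR4) 14 with 43.0 (18.5 to 102) and the ADP receptor P2ry1 9 with 11.4 (4.77 to 24.8). After thinning, Cd226, F2rl3 and P2ry1 were at 88.3, 18.9 and 6.30.

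Among granule and secreted proteins, Vwf and Pdgfb were on both probe sets. Pdgfb had enough counts at E14.5 only through the gated cells, and both genes had under 100 counts at E13.5. Vwf encodes von Willebrand factor, which tethers platelets to damaged vessels and is also made by endothelium. It reached 24563 CPM in gated and 1082 CPM in other cells at E14.5, a ratio of 22.7 (22.3 to 23.1), and 2355 and 193 CPM at E13.5, a ratio of 12.2 (9.45 to 15.6) from 86 counts. Pdgfb, a growth factor for mesenchymal cells, had 4372 and 102 CPM at E14.5, a ratio of 43.0 (40.7 to 45.4), and at E13.5 a ratio of 31.6 (13.4 to 73.6) from 12 counts. F13a1, the catalytic subunit of the fibrin-crosslinking factor XIII that macrophages make as well, had ratios of 5.95 (5.74 to 6.17) and 7.97 (4.33 to 13.8). Pdgfa and Vegfa, growth factors with wider expression, had ratios of 1.84 (1.64 to 2.07) and 0.893 (0.861 to 0.927) at E14.5. Thbs1, the adhesive glycoprotein thrombospondin 1, was on the larger probe set only and had 6106 CPM against 86.1 CPM at E13.5, a ratio of 70.9 (56.4 to 89.5). Tgfb1, the main stored form of TGF-β, had a ratio of 4.64 (3.57 to 5.96) from 70 counts.

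The cytoskeleton and signaling genes of the list were higher in gated cells nearly throughout. Of the 6 with enough counts at E14.5, 5 were at least 2-fold higher, beside 12.2% of all genes. The list was chosen with earlier results of these data known, so this count is a description only. Cavin2, a coat protein of caveolae, reached 14242 CPM against 1299.6 CPM, a ratio of 10.96 (10.7 to 11.2). Gng11, a G protein subunit, and Mylk and Myl9, the myosin light chain kinase and its substrate, had ratios of 10.4 (10.1 to 10.8), 9.44 (9.14 to 9.75) and 4.86 (4.69 to 5.04). Diaph1, an actin-nucleating formin, had 4.84 (4.75 to 4.93), and Rac2, a blood cell GTPase, was the exception at 1.31 (1.28 to 1.34). Scin, also on the list, had too few counts, with 32 in gated cells at E14.5, a ratio of 1.37 (0.929 to 1.96), and 0 at E13.5. At E13.5, the platelet tubulin Tubb1 had a ratio of 63.9 (40.0 to 104) from 52 counts, and the granule transport GTPase Rab27b had 53.6 (33.7 to 86.3) from 48. Rgs18, which limits G protein signals, had 40.1 (28.5 to 56.6) from 74 counts, and the adaptor Lat, which relays signals from collagen receptors, had 34.9 (24.8 to 49.04) from 70. Outside the list, the integrin partners Parvb and Fermt3 (kindlin-3) and the actin crosslinker Flna were named for their high ratios at E13.5. These were 11.1 (8.82 to 13.8), 7.07 (5.66 to 8.76) and 3.32 (2.80 to 3.91), with enough counts only through the gated cells.

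The listed genes of lipid mediators lay above a ratio of 1. Alox5ap, which presents arachidonic acid to 5-lipoxygenase, had a ratio of 3.66 (3.53 to 3.78) at E14.5. Ltc4s, the synthase of leukotriene C4, gave 37 counts and a ratio of 9.09 (6.05 to 13.4). Alox12, the platelet 12-lipoxygenase, gave 53 counts at E13.5 with a ratio of 72.4 (44.7 to 119.7), and Ptgs1, the cyclooxygenase of platelets, 29 counts with 3.44 (2.27 to 5.04). Some genes near the top at E14.5 are on none of the megakaryocyte lists. Hpgd, which inactivates prostaglandins, reached 3672 CPM against 266 CPM, a ratio of 13.8 (13.2 to 14.4). Timp3, an inhibitor of matrix metalloproteinases, had 11666 against 389.7 CPM, a ratio of 29.9 (29.1 to 30.8). Ctla2a, related to the propeptide of cathepsins, had 10378 against 457 CPM and a ratio of 22.7 (22.1 to 23.4). The lysosomal membrane gene Laptm5 had a ratio of 4.92 (4.80 to 5.03). The cytokine Il1b, which had enough counts only through the gated cells, had one of 8.76 (7.65 to 9.9996) from 304 counts.

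The ratios of transcription factors varied. Gata1, which both the red cell and the megakaryocyte lineage need, was at 15672 CPM in gated and 11269.9 CPM in other cells at E14.5, a ratio of 1.39 (1.37 to 1.42). Ikzf2 (Helios), a zinc finger factor, had a ratio of 3.90 (3.64 to 4.18) at E14.5, but gave only 1 count at E13.5. Fli1, an ETS factor that favors megakaryocytes over red cells, had 7.76 (5.49 to 10.7) at E13.5 from 45 counts, the highest of the 9 factors on that probe set. Nfe2, which platelet release depends on, had 1.71 (1.25 to 2.29) and Tal1, a factor of all blood formation, 1.21 (0.830 to 1.71). Together the 9 factors had a summed ratio of 2.03 (1.73 to 2.37).

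Erythroid genes were lower in gated cells at both stages but were far from absent. At E14.5, all 16 listed genes on the probe set had enough counts, none was 2-fold lower, and their median ratio was 0.726 beside 0.986 over all genes. They summed to 370158 CPM in gated and 497495 CPM in other cells. The heme enzyme Fech had the lowest ratio of them, 0.600 (0.593 to 0.607), and Slc4a1 had 0.735 (0.728 to 0.743). Epor, the erythropoietin receptor, and the water channel Aqp1 were the exceptions, with 1.02 (1.006 to 1.04) and 1.02 (0.993 to 1.05). At E13.5 the summed ratio of 8 erythroid genes was 0.784 (0.745 to 0.824), beside a median of 0.888 over all genes with enough counts. Tfrc, the transferrin receptor, was the lowest of the 8 at 0.686 (0.547 to 0.850). Isca1 was the exception above 1, at 1.27 (0.850 to 1.82) from 30 counts. The one gene that was 2-fold lower at E14.5 was Sox9, a factor of bile duct and cartilage cells, with 45.2 against 144 CPM and 38 counts in gated cells.

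Other cell types were represented unevenly. At E14.5 the macrophage list summed to a ratio of 1.15 (1.14 to 1.16). With at least 10 marker counts per cell, 6 of its genes that lay above 1 were below it, C1qb, Mrc1, Spic, Marco, Folr2 and Cd163, at ratios from 0.914 for Mrc1 to 0.998 for Marco. With only the highest cell of each linked group, C1qb was at 1.82 and Mrc1 at 1.77 instead. Ms4a7 was at 2.66 and had enough counts only through the gated cells. The endothelial list had 1.63 (1.60 to 1.65), with Tie1 at 3.80 (3.68 to 3.92) and Plvap at 2.08 (1.95 to 2.22) the 2 of 11 genes past 2-fold. This count is near the 12.2% of all genes that were past 2-fold. Clec14a, an endothelial receptor, was at 1.02 (0.952 to 1.08), and the sinusoid gene Oit3 at 0.900 (0.857 to 0.945). With the highest cell of each linked group alone, these 4 were at 6.19, 3.62, 1.61 and 0.973, and the stroma genes Col1a1 and Ptn at 2.15 and 1.54, from 1.02 and 0.741 over all gated cells. The hepatocyte list had 0.742 (0.734 to 0.751), the granulocyte list 0.826 (0.803 to 0.848) and the stroma list 0.997 (0.982 to 1.012). Stem and progenitor genes had 2.59 (2.54 to 2.63), with a median ratio of 1.19 over the 6 genes. Ctla2a alone gave 10378 of their 16351 CPM in gated cells and 457 of 6325 CPM in other cells. Kit, the stem cell factor receptor, was at 0.919 (0.880 to 0.959). At E13.5 the macrophage and endothelial lists had ratios of 0.979 (0.829 to 1.15) and 0.905 (0.720 to 1.12). The granulocyte list, headed by the granule enzyme gene Mpo, had 0.0964 (0.0313 to 0.225), with 5 counts in gated cells, all of Mpo, and 6 of its 7 genes at 0 there. The cell cycle lists had ratios of 0.895 (0.885 to 0.905) at E14.5 and 0.793 (0.725 to 0.866) at E13.5.

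Gene levels followed the marker count of the cell. The E14.5 gated cells were split into 1884 cells with 5 to 9 counts of Pf4, Ppbp and Mmrn1, 1124 with 10 to 19, 767 with 20 to 49 and 274 with 50 or more. Slamf1 was at 1590.5, 4813, 16187 and 37849 CPM in these classes, against 82.3 outside the gate. Vwf was at 7295, 17530.2, 48656 and 76257 CPM. At least 1 count of Slamf1, Vwf or Pdgfb was seen in 72.2% of the first class, 94.8% of the next and 100% of both others. With every cell thinned to 100 counts these shares were 51.8%, 81.1%, 97.0% and 100%. The classes were cut on the counts that the rule used, and the 3 genes were chosen as high in gated cells, so these shares are a description. The lowest class thus had the most cells in which none of these 3 genes was seen. Slc4a1 went the other way, from 65068 CPM outside the gate to 57887, 52935, 33361 and 15900 CPM, and the whole erythroid list stood at 161308 CPM in the highest class against 497495 outside. Genes that both lineages or the red cell lineage use differed among themselves. Klf1, a factor of red cells, was at 2915 CPM in the highest class against 17168 outside. Gata1 was at 12341, 14336, 20185 and 25848 CPM against 11269.9 outside, and Epor at 21852 CPM in the highest class against 14860.5.

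Genes of other cell types differed in direction along the same classes. C1qb was at 6540.1 CPM in the lowest class, above the 3696 CPM outside the gate, and at 1616 CPM in the highest. Among endothelial genes, Tie1 climbed to 12827 CPM and the VEGF receptor Kdr to 5235 CPM in the highest class, from 1370.2 and 1676 outside the gate. Clec14a and Dnase1l3, also of the endothelial list, were at 377 and 72.9 CPM there, against 1127 and 399 outside. The cell cycle gene Ube2c, which acts in mitotic exit, was at 1931 CPM in the highest class and 9289 outside. At E13.5, Itgb3 was at 2019 CPM in the 38 cells with 3 to 4 counts and 8703 CPM in the 16 cells with 20 or more.

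**Figure D3:**
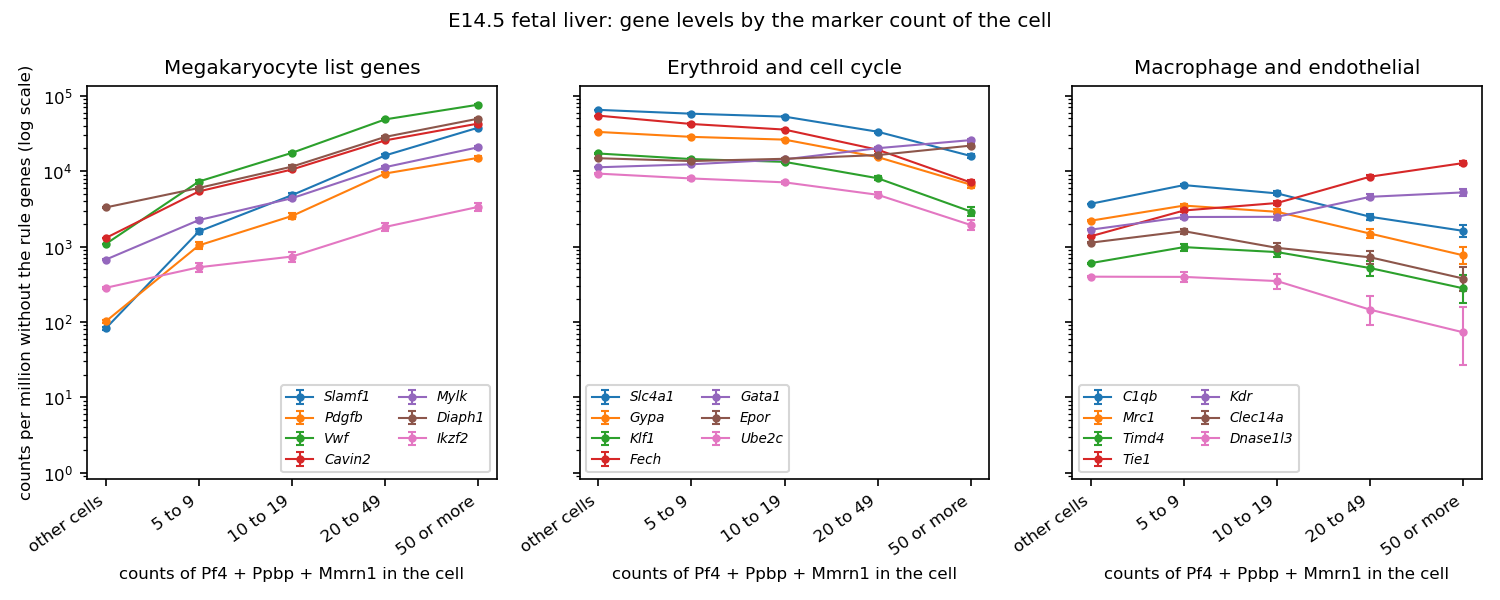
Levels of named genes at E14.5 in CPM on a log axis, with exact Poisson intervals, in the cells outside the gate and in the 4 classes of gated cells by their counts of Pf4, Ppbp and Mmrn1. Slamf1 and Vwf climb from class to class to 37849 and 76257 CPM, Slc4a1 and Ube2c descend, and the endothelial genes part, with Tie1 and Kdr upward and Clec14a and Dnase1l3 downward.

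Gated cells had somewhat larger median outlines than other cells. The median nucleus area at E14.5 was 31.0 µm² (interval of the median 30.5 to 31.4, quartiles 22.7 and 40.6) in gated and 26.5 µm² in other cells, a ratio of 1.17. The median cell area was 60.1 µm² (59.2 to 61.1) against 47.6 µm², a ratio of 1.26. The gated cells were also deeper, with a median of 209 counts against 166 at E14.5, or 194 against 166 without the rule genes. The part of depth in the area difference was not tested. With other cells weighted to the depth of the gated cells, counted without the rule genes, the ratios were 1.02 for the nucleus and 1.11 for the cell. At E13.5 the nucleus had 23.9 µm² (21.8 to 28.0) against 22.3 µm² and the cell 49.9 µm² (45.9 to 60.0) against 40.8 µm², with ratios of 1.08 and 1.22, or 0.936 and 1.03 after weighting. At E13.5 the median nucleus of other cells lay within the interval of the gated cells, both unweighted (22.3 µm²) and weighted (25.6 µm²). Counts per area, with the rule genes included, were close in gated and other cells at E14.5, and higher in gated cells at E13.5. Depth thus goes with outline size, and weighting by depth also matches cells in part on size. The weighted ratios therefore cannot decide whether gated cells are larger, and no conclusion on size is drawn from them.

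Few outlines had the size for which megakaryocytes are known. At E14.5, 151 gated cells (3.73%, 3.17% to 4.36%) had a nucleus above 63.5 µm², the 99th percentile of other cells, and the largest nucleus in the gate measured 160.3 µm². At E13.5, where the software counted nuclei per outline, 3 of 99 gated cells (3.03%) and 134 of 5186 other cells (2.58%) had 2 or more. Marker counts, which the rule used, and outline size both go with depth. The median nucleus at E14.5 was 29.3, 29.3, 33.6 and 49.02 µm² over the 4 classes, and the median cell 55.2, 57.3, 64.7 and 101 µm². With the marker genes at 5% or more of a cell's counts the nucleus ratio at E14.5 was 1.07, and with the highest cell of each linked group at matched depth it was 1.09. The 16 cells with 20 or more counts at E13.5 had a median nucleus of 34.7 µm² and a median cell of 76.7 µm². A section of 5 µm shows a slice of a nucleus, so these areas are those of slices.

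**Figure D4:**
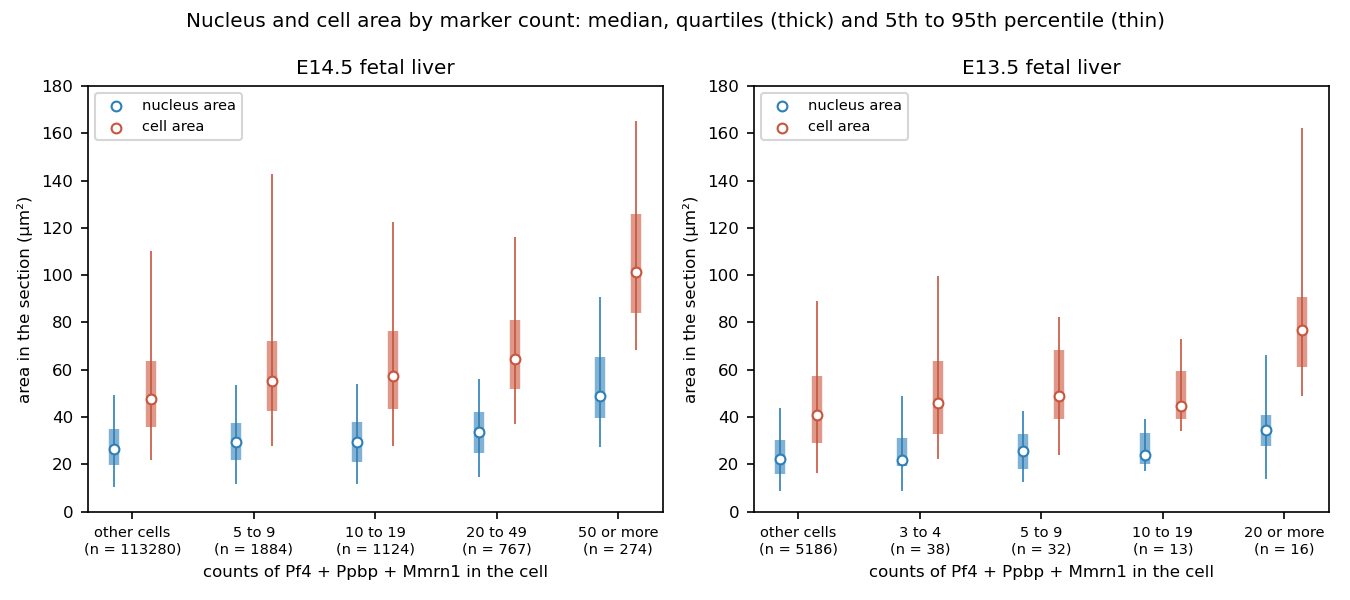
Nucleus area (blue) and cell area (red) in µm² of the section, as medians (circles), quartiles (thick bars) and 5th to 95th percentiles (thin bars), in other cells and in classes of gated cells by their counts of Pf4, Ppbp and Mmrn1, at E14.5 (left) and E13.5 (right). At E14.5 the median nucleus changes little below 20 counts and is 49.02 µm² in the 274 cells with 50 or more, against 26.5 µm² in other cells.

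Gated cells lay in clumps. Another gated cell lay within 20 µm of 92.4% (91.6% to 93.2%) of them at E14.5, while 24.9% of other cells had a gated cell that near, and the median distance to the nearest was 7.33 µm. At E13.5 these were 87.9% (79.8% to 93.6%), 18.1% and 6.94 µm. Such distances are those of touching outlines, and several megakaryocytes cannot be told apart here from 1 that was divided into several outlines. When gated cells within 12 µm were linked, the 4049 cells at E14.5 formed 1118 groups, of which 507 were single cells and 312 had 5 or more cells, with 2723 cells in these 312. The largest had 50 cells. The 99 cells at E13.5 formed 41 groups, 21 of them single cells, and the largest had 10. Linking at 8 or 20 µm gave 2201 or 848 groups at E14.5 and 54 or 34 at E13.5, so the number of megakaryocytes in these sections was not determined.

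Cells with few counts lay beside cells with many. Of the 3008 gated cells under 20 counts at E14.5, 56.7% had a cell with 20 or more within 12 µm, as did 2.73% of the cells outside the gate, and at E13.5 these shares were 32.5% of 83 cells and 1.21%. Outside the gate, the mean marker count at E14.5 was 1.19 in cells under 8 µm from a gated cell, 0.748 from 8 to 12 µm, 0.321 from 12 to 20 µm and 0.153 from 40 to 80 µm. Taking only the cell with the most counts of each group, the median nucleus was 36.9 µm² at E14.5 and 23.9 µm² at E13.5, and the median cell 77.4 and 59.4 µm². The share of low cells that received their counts from a neighbor was not tested.

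Single transcripts, given with their positions at E14.5, were counted around groups of gated cells. The centers were the cells with the most marker counts in each of 395 groups with 50 or more such counts. Within 5 µm of these cell centers the density of Slamf1 was 43.0 times that of the ring from 30 to 40 µm. In the rings up to 10, 15 and 20 µm it was 15.5, 3.13 and 0.952 times. Vwf gave 22.7, 9.81, 2.29 and 1.03 times. Pf4, one of the genes that chose the centers, was still at 1.52 times from 15 to 20 µm. Slc4a1 was at 0.346 times within 5 µm and 0.989 times from 10 to 15 µm, and C1qb at 0.515 and 1.10 times. Slamf1 and Vwf were thus near their surrounding level beyond 15 µm, while Ppbp was at 1.39 and Timp3 at 1.15 times from 15 to 20 µm. In gated cells, 50.2% of Vwf transcripts and 54.7% of Slamf1 transcripts lay over the nucleus, against 61.8% and 62.6% in other cells, and 52.9% of all transcripts apart from the rule genes did so. Only 0.509% of Slamf1 transcripts lay outside any outline, against 2.83% of all these transcripts.

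**Figure D5:**
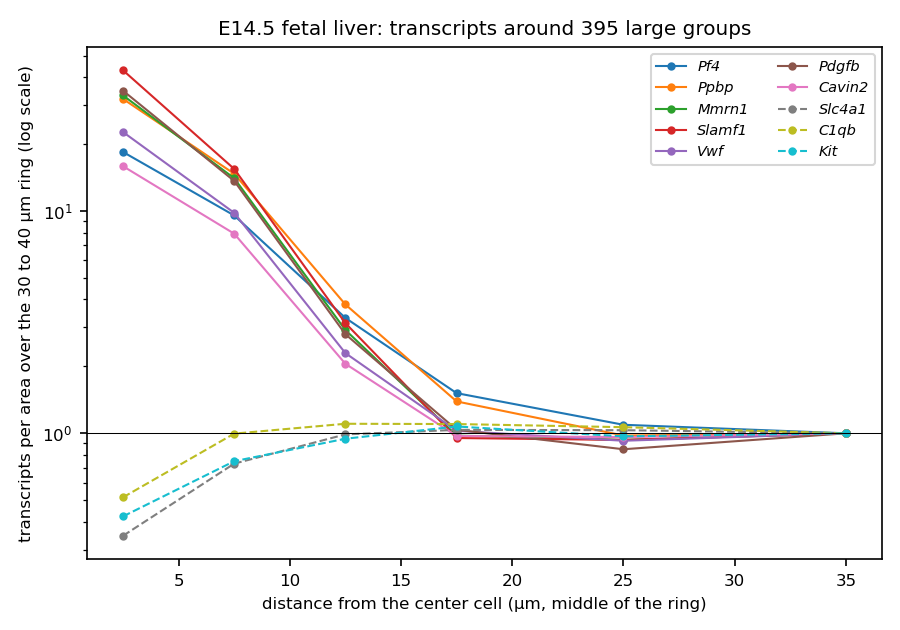
Transcripts per area at E14.5, relative to the ring from 30 to 40 µm, on a log axis against the distance from the center cell. The center cells had the most marker counts in each of 395 groups of gated cells with 50 or more counts of Pf4, Ppbp and Mmrn1. Slamf1 starts at 43.0 times and Vwf at 22.7 times within 5 µm and both are near 1 from 15 µm on, while Slc4a1, C1qb and Kit (dashed) start at 0.346, 0.515 and 0.423 times.

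The surroundings of gated cells were close to those of other cells at E14.5. Endothelial cells were those with 3 or more counts summed over 8 endothelial genes, as far as these were on the probe set. Kdr, Tie1, Clec14a, Plvap and Lyve1 were on both probe sets, Oit3 and Dnase1l3 on the smaller only, and Stab2 on neither. The endothelial shares at E14.5 and E13.5 therefore rest on unlike gene sets. Endothelial cells at E14.5 made up 12.8% of the neighbors of gated cells within 20 µm and outside the gate, and 12.9% of those of other cells. The ratio was 0.993 (0.973 to 1.014). C1q-positive cells, with 3 or more counts of C1qa, C1qb and C1qc, made up 13.2% and 12.5%, a ratio of 1.06 (1.04 to 1.08). At E13.5 the endothelial share was 5.66% and 4.88%, a ratio of 1.16 (0.9504 to 1.41), and the C1q-positive share 8.05% and 5.48%, a ratio of 1.47 (1.24 to 1.72) that was 1.13 (1.03 to 1.24) within 40 µm. Neighbors of clumped cells are counted more than once, so these intervals are too narrow.

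The share of gated cells varied across the tissue. The 4 large pieces of the E14.5 section, with 57649, 27454, 17409 and 14468 cells, held 3.41%, 2.66%, 2.88% and 5.81% of gated cells, and in squares of 200 µm the share ran from 0% to 11.4% with a median of 2.85%. In the piece with the highest share, the nucleus ratio was 1.16 and the Slamf1 ratio 104, and over all 4 pieces the nucleus ratio lay between 1.16 and 1.21 and the Vwf ratio between 21.4 and 26.6. The gene levels in the gate thus differed less between pieces than its share did.

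Bone marrow of postnatal day 8, from the same slide, run and probe set, gave a point of comparison for the E14.5 cells. The same gate held 1888 of 52594 marrow cells (3.59%). This minimum took in unlike cells, with a median of 209 gene counts per gated cell in the liver and 154.5 in the marrow. Cells outside the gate had medians of 166 and 108. The part of this depth in the levels below was not tested. The level of Slamf1 in gated cells was 8749 CPM in the liver and 6992 CPM in the marrow, and that of Vwf 24563 and 26524 CPM, with liver to marrow ratios of 1.25 (1.19 to 1.31) and 0.926 (0.902 to 0.951). Cavin2 stood at 14242 and 14209 CPM. Pdgfb was higher in the liver, with 4372 against 3290 CPM, and Ikzf2 also, with 1107 against 479 CPM, while Timp3 was lower, with 11666 against 16104 CPM. The chemokines Ppbp and Pf4, which the gate used, were at 0.603 and 0.722 of their marrow level. Median areas in the marrow gate were 26.6 µm² for the nucleus and 55.0 µm² for the cell, with ratios to other marrow cells of 1.21 and 1.09, beside 1.17 and 1.26 in the liver. In the 474 marrow cells with 20 or more counts they were 32.3 and 72.6 µm², against 37.6 and 73.5 µm² in 1041 liver cells of that class. With 1 section of each, tissue and section cannot be told apart.

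Both livers could be set side by side through the 230 genes on both probe sets outside the rule. Of these, 13 had enough counts and were at least 2-fold higher in gated cells at E14.5. The 230 include genes with too few counts there, such as Acan with 15, so no share of them is given. Over all 245 genes with enough counts at E14.5, 12.2% were at least 2-fold higher. The 13 were not set against that share and are named as a description only. Pdgfb, Il1b, Ms4a7 and Rasd1 of the 13 had enough counts only through the gated cells. Diaph1, Itgb1 and Plvap, 3 of the 13, had at least 10 counts expected in gated cells at E13.5 from the level of other cells. Diaph1 had a ratio of 2.98 (2.25 to 3.88) at E13.5. Itgb1, an integrin chain of most cells, had 2.23 (2.20 to 2.26) at E14.5 and 1.47 (1.22 to 1.76) at E13.5, and Plvap, the diaphragm protein of endothelial pores, had 2.08 (1.95 to 2.22) and 1.12 (0.625 to 1.87). Of the 35 genes on both probe sets with that many counts expected at E13.5, 8 lay above a ratio of 1 there. The remaining genes of the 13 had fewer counts expected and are given by their values alone. The urea transporter gene Slc14a1 had 3.71 (3.64 to 3.78) and 5.81 (4.27 to 7.75), and Tie1 had 2.30 (1.34 to 3.70) at E13.5, beside the ratios of Vwf, Pdgfb and F13a1 above. Cd274, Il1b, Ms4a7 and Ikzf2 gave 1 count each in gated cells at E13.5 and Rasd1 gave 0, which leaves their direction there unknown.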

How the data were processed

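The authors deposited transcript counts per gene and segmented cell without normalization, with the position, nucleus area and cell area of each cell. Run descriptions name Xenium Onboard Analysis 1.7.1.0 for E14.5 and 3.1.0.4 for E13.5, while the methods name Space Ranger. For E14.5 the authors also deposited single transcripts with a quality score given by the instrument's software, and counting those with a score of at least 20 gave back the counts of all 477 genes and 117329 cells.

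All cells were kept, doublets were not called and transcripts of neighbors were not removed. Counts were summed over gated cells and over all other cells of the section. Genes with at least 100 counts in gated cells, or 100 expected there, were compared by their ratio, with a difference of 2-fold as the threshold. Named were the genes of the gate, the listed genes on the probe set, and the 15 highest and 10 lowest ratios per section. The members and the gene lists were chosen with earlier results of these data known. Intervals are exact Poisson, exact binomial or exact conditional intervals at 95%, from order statistics for medians. The comparison of genes was tested on simulated data. Alternatives changed the minimum of marker counts, the number or share of marker genes, the depth, the scaling and the radius. Python 3.11.15, numpy 2.4.6, scipy 1.17.1, pandas 2.3.3 and matplotlib 3.10.9 were used. Gated cells of both bone marrow sections were set beside those of the liver, and the spleen sections gave only their number of cells. One receptor gene of the lists is not reported here.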

Additional observations from a re-analysis of the deposited data

How the results depend on the processing

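Single sections and the small E13.5 section limit these values. No paired analysis was possible because each stage has 1 section. No direction was tested, and 28 of 71 alternative values stayed within 1.5 times, for counts of genes, or within the 95% interval, for shares and ratios, of the value they vary, while 43 fell outside. The share of gated cells at E14.5 was 5.61% with at least 3 marker counts, 1.85% with at least 10, 3.27% with 2 or more marker genes, 1.87% with marker genes at 5% or more of a cell's counts and 1.73% when only transcripts over the nucleus counted. At E13.5 it was 2.59% with at least 2 marker counts, 1.15% with at least 5, 1.36% with 2 or more genes and 0.454% at 5% of the counts. By construction stricter gates hold fewer cells. The nucleus area ratio at E14.5 was 1.24 with at least 10 marker counts, 1.07 at 5% of the counts and 1.02 with other cells weighted to the depth of gated cells, and the cell area ratio was 1.35, 1.18 and 1.11. Weighting gave 0.936 for the nucleus and 1.03 for the cell at E13.5, the former on the other side of 1. The 2-fold lower genes at E14.5 numbered 12 of 220 with at least 10 marker counts and 25 of 212 at 5% of the counts. With cells thinned to 100 counts they numbered 0 of 199, where Sox9 had too few counts to be compared, at a ratio of 0.254. The 2-fold higher genes at E13.5 numbered 4 with at least 5 marker counts, 0 of 3 tested at 5% of the counts and 0 of 6 tested after thinning, since few genes then had enough counts. The share with another gated cell within 20 µm was 89.0% with at least 10 marker counts at E14.5 and 77.0% with at least 5 at E13.5, and within 40 µm it was 96.4% at E14.5. With at least 10 marker counts the neighbor ratios at E14.5 were 0.967 for endothelial and 1.08 for C1q-positive cells. Within 40 µm the C1q-positive ratio was 1.02 at E14.5 and 1.13 at E13.5, and the endothelial ratio at E13.5 was 0.901, on the other side of 1. Other alternatives were chosen after seeing the data. With the highest cell of each group alone, the nucleus ratio at E14.5 was 1.40 and the cell ratio 1.62, 46 genes were 2-fold higher and 12 lower, and at E13.5 there were 3 higher and 1 lower. With weighting as well, the nucleus ratio was 1.09 at E14.5 and 0.906 at E13.5. With 2 or more marker genes, 2 genes were 2-fold lower at E14.5. With a minimum of 20 counts per gene, 6 were lower at E14.5, and 75 were higher and 16 lower at E13.5. A total without Hbb-bt could not be formed at E13.5, where this gene was not on the probe set. Beyond the causes stated, the cause was not tested.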

Other observations

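Gated cells at E14.5 were split at the quartiles of their nucleus area, 22.7, 31.0 and 40.6 µm², and cells outside the gate at the same limits, and levels are given from the smallest to the largest nuclei. The granule and secreted list of megakaryocytes was at 36902, 29776, 32441 and 45542 CPM in gated cells, lowest in the second class and highest in the last, and at 5284, 5119.9, 5919.8 and 8281 CPM in other cells. The erythroid list was at 383465, 429104, 398483 and 309345 CPM in gated cells and 493140, 533932, 517259 and 433672 CPM in other cells, in both highest in the second class and lowest in the last. The macrophage list was at 43437, 33145, 30588 and 28074 CPM in gated and 37057, 26978, 24478 and 24535 CPM in other cells, in both highest where nuclei were smallest. The cell cycle list climbed from class to class in both, with 31788, 36376, 41981 and 45068 CPM in gated and 36478, 40006, 48642 and 55490.1 CPM in other cells. Vwf was at 25207, 19939, 21039 and 29588 CPM in gated cells and Slamf1 at 8626, 6644, 7824 and 10713 CPM, and Vwf is itself the largest member of the granule list.

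The bone marrow of 89-week-old mice, imaged in 1 run with the E13.5 liver, held 5646 of 143810 cells under the same minimum of 3 counts (3.93%). Levels in these gated cells were 12613 CPM for Itga2b, 9632 CPM for Itgb3, 9682 CPM for Thbs1 and 7466 CPM for Vwf, against 5257, 4244, 6106 and 2355 CPM in the gated cells of the E13.5 liver. All 4 were lower in the liver, as was Selp, at 54.8 against 1141 CPM, the first from 2 counts. The same minimum took in unlike cells, with a median of 278 gene counts per gated cell in the liver and 147 in the marrow. Gated cells with 20 or more marker counts numbered 16 in the liver and 1340 in the marrow. The part of this in the levels was not tested, and with 1 section of each, tissue, age and section cannot be told apart.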
